A study of Mus musculus with 16 samples.

Results

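Splice forms of 7 genes whose transcripts are known to switch between epithelial and mesenchymal cells were followed in organoid lines of mouse pancreatic ductal adenocarcinoma. The genes were Cd44, Ctnnd1, Enah, Numb, Slk, Arhgef11 and Pkm. Their transcripts were those of the GENCODE mouse M21 annotation, and a transcript was kept where its mean share of its gene's transcripts over the 16 lines was 5% or more. This kept 26 of the 89 annotated transcripts of the 7 genes, out of 142238 transcripts in the tables as a whole. By gene, 5 of 9 transcripts of Cd44 were kept, 4 of 30 of Ctnnd1, 5 of 16 of Enah, 4 of 12 of Numb, 4 of 5 of Slk, 2 of 6 of Arhgef11 and 2 of 11 of Pkm. The kept transcripts held between 85.1% (Enah) and 97.8% (Slk) of their gene. The annotation gave 4 of the 26 a type other than protein coding, either retained intron or nonsense-mediated decay.

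The lines came from 6 C57BL6/J mice of the KPC model, a genetically engineered model of pancreatic cancer. The 9 metastasis lines came from the liver of mouse 1, the peritoneum of mice 2, 3 and 4, the diaphragm and lung of mouse 5, and the liver, diaphragm and ovary of mouse 6. The 7 tumor lines were 1 primary tumor line from each of mice 1 to 5 and 2 from mouse 6. All lines were grown as organoids, epithelial bodies cultured in domes of basement membrane gel, in a medium that held EGF, FGF-10, Noggin, R-spondin and A83-01, an inhibitor of the TGF-beta type I receptor kinase, so metastasis and tumor lines shared these conditions. The series asked how metastasis-derived organoids differ from organoids of the primary tumor.

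As background, epithelial cells and mesenchymal cells read many genes in different splice forms. The RNA-binding proteins Esrp1 and Esrp2 promote the epithelial form of Cd44, Ctnnd1, Enah, Slk and Arhgef11, while proteins such as Rbfox2 and Qk favour mesenchymal forms of several of these genes. The exons concerned add or remove short stretches of proteins that work at cell contacts, in the actin cytoskeleton and in signalling. Pkm is switched in another way: Ptbp1, Hnrnpa1 and Hnrnpa2b1 repress the exon of its M1 form, which leaves the M2 form that prevails in proliferating cells.

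Total RNA was sequenced after removal of ribosomal RNA, and the total expected count per line ran from 24624420 to 49965492. Genes that collect residual ribosomal RNA took 72.7% of the counts of the diaphragm line of mouse 5. They took 29.9% in the tumor line of mouse 2 and 0.588% or less in each other tumor line. In the peritoneum lines of mice 2, 3 and 4 they took 16.6%, 18.5% and 14.02%. They took 12.3% in the ovary line of mouse 6, 4.16% in the lung line and 2.19% in the liver line of mouse 1. The liver and diaphragm lines of mouse 6 were at 0.0185% and 0.01902%. In mice 1, 3, 4 and 5 the metastasis lines thus held more ribosomal RNA than the tumor line, and in mouse 2 less. In mouse 6 the tumor lines were at 0.0463% and 0.298%, with the ovary line above them and the liver and diaphragm lines below. The part of ribosomal RNA in stage and peritoneum differences was not tested. Epithelial markers were high in every line: the summed level of 6 epithelial markers was 2342 to 7395 TPM (a transcript level corrected for length and library size) in metastasis lines and 3024 to 5840 TPM in tumor lines. The sum over 5 fibroblast markers reached at most 0.23 TPM in metastasis lines and 0.12 TPM in tumor lines, and that over 7 mesenchymal markers 24.2 and 8.72 TPM. Immune, endothelial, mesothelial and skeletal muscle markers summed to at most 0.49, 0.20, 2.43 and 7.61 TPM in metastasis lines and 0.38, 0.10, 1.44 and 11.6 TPM in tumor lines. Of the 3 mesenchymal markers with enough counts to test, Vim, the intermediate filament of mesenchymal cells, was higher in metastasis lines and Fn1, the matrix protein fibronectin, was lower, while Cdh2 did not pass. Vim reached 103 CPM (counts scaled to a fixed library size, with TMM factors between libraries) in the diaphragm line and 15.3 CPM in the lung line of mouse 5, 0.287 to 3.06 CPM in the other metastasis lines and 0.115 to 3.32 CPM in tumor lines. Its log2 fold change was 2.48 (SE 0.68, adjusted p = 0.0295 in edgeR), with 5 of 6 mice higher, against -2.38 (SE 0.66, adjusted p = 0.0318) for Fn1, with 5 of 6 mice lower. Without the diaphragm line of mouse 5 the Vim log2 fold change was 2.12 (adjusted p = 0.0301), and without mouse 5 it was 2.10 (adjusted p = 0.0758). Of the 6 epithelial markers, the keratin gene Krt7 passed (log2 fold change 0.90, SE 0.27, adjusted p = 0.0405) and was higher in metastasis lines. No epithelial marker passed as lower. The part of these markers in the results that follow was not tested. The tumor line replicate 6 of mouse 6 stood apart from the other tumor lines in several of the measures that follow, and the tests it touches are given with it in place and without it. The labels do not say that lines of 1 mouse came from separate tumors or cultures, so the spread within mouse 5 and mouse 6 may be partly technical.

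No kept transcript of the 7 genes and no switch exon passed the threshold of an adjusted p of 0.05 between stages, between mice or between sites, in limma fits over all transcripts or exons of the tables. The background rates of such calls were as low: 0.0041% of 24387 transcripts (1 transcript) and 0% of 6297 exon events passed by stage. At an unadjusted p under 0.05, limma gave 2586 transcripts (10.6%) and 641 exon events (10.2%) by stage, and 4 of the 26 kept transcripts and 1 of the 18 switch exons it tested. With edgeR's diffSpliceDGE, which tests a transcript's counts against the rest of its gene, 0 of the 26 passed, against 0.0591% of all transcripts tested. The median size of the stage difference was 2.00 percentage points over the 26 kept transcripts, against 1.88 over all transcripts tested. Over the 18 switch exons that the fit covered it was 2.59 points, against 2.37 over all exon events. The 18 count the M1 and M2 exons of Pkm separately, although their differences are equal in size and opposite in sign. The total levels did move for some genes: Slk was higher and Enah lower in metastasis lines. Among all 15573 genes tested, 16.5% passed by stage in edgeR, 6.59% higher and 9.92% lower in metastasis lines.

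**Figure D1:**
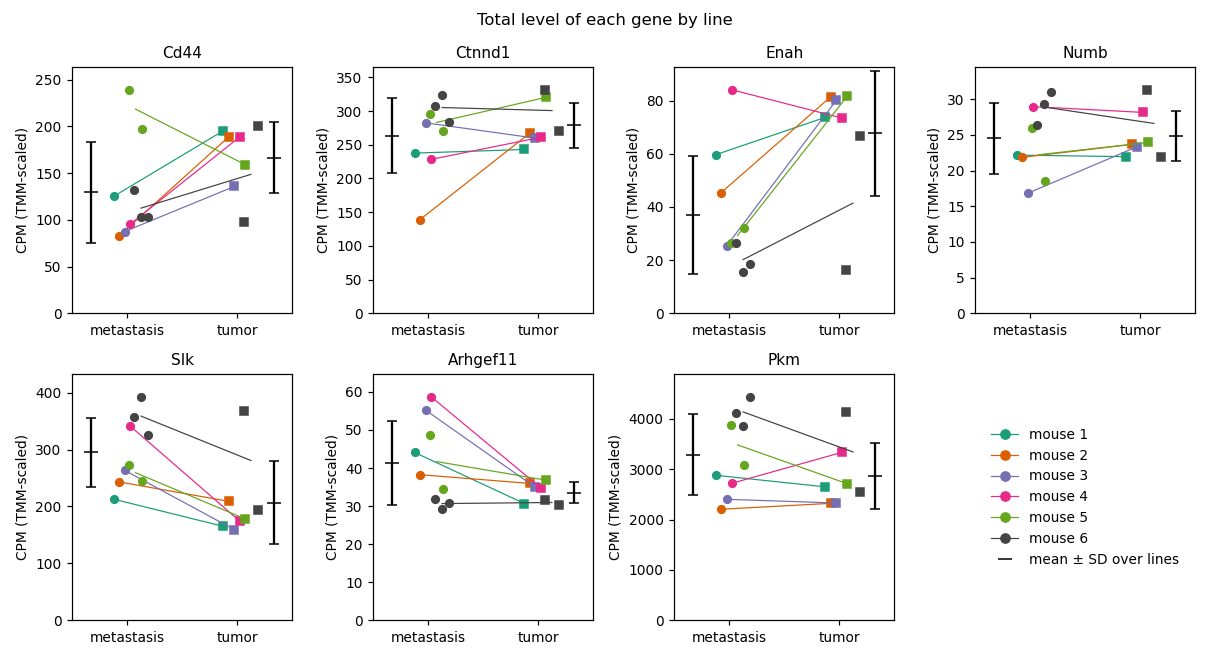
Total level of each gene in CPM (linear axes) for metastasis lines (circles) and tumor lines (squares), coloured by mouse. Thin lines join the mean of a mouse's metastasis lines to the mean of its tumor lines, and bars are the mean ± SD over 9 metastasis and 7 tumor lines. Slk is higher and Enah lower in most metastasis lines, and the tumor line replicate 6 of mouse 6, the gray square at 368 CPM for Slk and at 16.1 CPM for Enah, lies with the metastasis lines.

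Slk, a kinase that acts on the cytoskeleton and at focal adhesions, gave the most regular difference among the 7 genes. Its switch exon, exon 13 of the longer-coding form, adds 31 codons to the coiled-coil region of the protein, and its skipping is known to be favoured by Esrp proteins. In this and the other exon sequences, capitals mark the exon and small letters the 15 bases of the neighbouring exons on either side, in the most abundant transcript that holds it. The sequences are those of the GENCODE M21 transcripts, exon positions are on GRCm38, and the strand given is the gene's.
Slk exon 13 (chr19:47627648-47627740, plus strand): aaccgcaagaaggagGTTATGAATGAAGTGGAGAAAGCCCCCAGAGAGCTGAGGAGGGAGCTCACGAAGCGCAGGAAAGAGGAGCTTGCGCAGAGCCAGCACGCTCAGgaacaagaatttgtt

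Inclusion of an exon was taken as the summed TPM of the transcripts that hold it, as a percent of that of all transcripts which span its place. For Slk exon 13 it was 75.4% in the liver line of mouse 1, and 69.8%, 79.5% and 67.0% in the peritoneum lines of mice 2, 3 and 4. It was 78.0% in the diaphragm line and 69.5% in the lung line of mouse 5, and 73.4%, 79.0% and 78.0% in the liver, diaphragm and ovary lines of mouse 6. In tumor lines it was 60.5%, 65.4%, 59.9%, 66.3% and 58.9% in mice 1 to 5, and 82.5% and 67.0% in replicates 6 and 7 of mouse 6. The groups overlapped through mouse 4's metastasis line and the tumor line replicate 6, which was the highest of all lines.

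Mean inclusion of Slk exon 13 was 74.4% ± 4.69 in metastasis lines and 65.8% ± 8.08 in tumor lines (SD, n = 9 and 7). The difference within mice was 8.31 percentage points (SE 3.11), with an adjusted p of 0.408 in limma over all exon events. It was above 0 in 6 of 6 mice, by 14.9, 4.45, 19.6, 0.655, 14.8 and 2.04 points in mice 1 to 6, and an exact sign-flip test, two-sided, over the 6 mice gave p = 0.03125, the smallest that 6 mice allow. One sign in all 6 mice was seen in 7.56% of all exon events. Without the tumor line replicate 6 the difference was 10.8 points, with an adjusted p of 0.190 in limma. In mouse 6 the mean of the metastasis lines was the higher, although the tumor line replicate 6 lay above each of its 3 metastasis lines.

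The 2 leading Slk transcripts are those from which exon 13 inclusion was computed, so their shares restate that measure and are not separate evidence. Slk-202, which holds exon 13, made up 61.2% ± 4.11 of Slk in metastasis lines and 54.1% ± 5.92 in tumor lines. Slk-201, which lacks it, made up 21.04% ± 3.85 in metastasis lines and 28.2% ± 6.82 in tumor lines. The differences were 6.83 points (SE 2.49, adjusted p = 0.366) for Slk-202 and -6.95 points (SE 2.57, adjusted p = 0.374) for Slk-201 in limma, each with 1 sign in 6 of 6 mice (exact sign-flip p = 0.03125), as in 7.95% of all transcripts. The transcripts also differ outside the exon: the annotation gives Slk-201 2791 further bases in its last exon and 341 in its first, while exon 13 is the 93 bases that Slk-202 has alone. Reads on those ends enter the shares, and their part in the result was not tested. The other kept Slk transcripts, Slk-204 and Slk-203, are short retained-intron models with 5.08% to 10.5% of Slk in metastasis lines and 6.35% to 9.10% in tumor lines on average.

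The Slk total was higher in metastasis lines. It was 213, 243, 264 and 342 CPM in the metastasis lines of mice 1 to 4, 274 and 245 CPM in the diaphragm and lung lines of mouse 5, and 358, 393 and 326 CPM in the liver, diaphragm and ovary lines of mouse 6. The tumor lines held 165, 209, 159, 174 and 178 CPM in mice 1 to 5, and 368 and 194 CPM in replicates 6 and 7 of mouse 6. The metastasis lines thus lay above the tumor lines other than replicate 6, which ranked with the highest metastasis lines. The mean was 295 ± 61.3 CPM in metastasis lines and 207 ± 73.0 CPM in tumor lines, higher in 6 of 6 mice. In edgeR's quasi-likelihood test over all genes the log2 fold change was 0.50, with an SE of 0.13 and an adjusted p of 0.0280. Without the 2 libraries rich in ribosomal RNA the log2 fold change was 0.53 and the adjusted p 0.0813, and without mouse 1, 3, 4 or 5 the adjusted p was 0.0528 to 0.0876. Without the tumor line replicate 6 the log2 fold change was 0.64, with an adjusted p of 0.00178.

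Enah, the Mena protein that extends actin filaments at the leading edge and at junctions, fell as a whole gene while its epithelial exon did not move in 1 direction. The total was 59.6, 45.3, 25.2 and 84.1 CPM in the metastasis lines of mice 1 to 4, 26.5 and 31.9 CPM in those from diaphragm and lung of mouse 5, and 26.3, 15.6 and 18.6 CPM in those from liver, diaphragm and ovary of mouse 6. It was 73.7, 81.5, 80.2, 73.4 and 81.7 CPM in the tumor lines of mice 1 to 5, and 16.1 and 66.7 CPM in replicates 6 and 7 of mouse 6. The tumor line replicate 6 lay with the metastasis lines of its mouse, and the peritoneum line of mouse 4 lay above every tumor line. The mean was 37.0 ± 22.3 CPM in metastasis lines and 67.6 ± 23.4 CPM in tumor lines, lower in 5 of 6 mice. In edgeR the log2 fold change was -0.93, with an SE of 0.28 and an adjusted p of 0.0439. This call was near the threshold: without the tumor line replicate 6 the adjusted p was 0.00696, and without the tumor line replicate 7 it was 0.116 with a log2 fold change of -0.65. It was also lost without the 2 libraries rich in ribosomal RNA (adjusted p = 0.134), without metastasis replicate 4, 5, 7 or 8 (0.0645 to 0.0809) and without each mouse other than mouse 4 (0.0569 to 0.171).

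The epithelial exon of Enah, 11a, adds 21 codons within the C-terminal EVH2 domain of the protein. It is promoted by Esrp proteins and is a standard marker of epithelial splicing. In the annotation it is held by the transcript Enah-202 alone.
Enah exon 11a (chr1:181911597-181911659, minus strand): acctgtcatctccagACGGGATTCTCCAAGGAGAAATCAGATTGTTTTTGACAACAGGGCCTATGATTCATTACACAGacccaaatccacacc
Inclusion of exon 11a was 51.5%, 62.4%, 58.9% and 67.7% in the metastasis lines of mice 1 to 4, 38.4% and 55.3% in the diaphragm and lung lines of mouse 5, and 60.3%, 43.6% and 39.8% in the liver, diaphragm and ovary lines of mouse 6. In tumor lines it was 60.02%, 58.1%, 53.1%, 56.7% and 58.9% in mice 1 to 5, and 46.2% and 55.8% in replicates 6 and 7 of mouse 6. The lowest and the highest lines were both metastasis lines, and the tumor lines lay between them.

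Mean exon 11a inclusion was 53.1% ± 10.5 in metastasis lines and 55.6% ± 4.69 in tumor lines. The difference was -1.42 points (SE 4.02, adjusted p = 0.924 in limma), with 3 mice up and 3 down. By site, fitted within mice, the exon stood 7.03 points (SE 4.58) above tumor in the 3 peritoneum lines. It stood 14.4 (SE 5.12) and 15.04 (SE 6.57) points below tumor in the diaphragm lines and the ovary line. The peritoneum lines were the only metastasis lines of mice 2, 3 and 4, so that site cannot be told apart from those mice. The F test over sites gave an adjusted p of 1.00 in limma for this exon. That test asks whether the metastasis sites are equal among themselves, not whether they differ from tumor. The line with the lowest inclusion, from the diaphragm of mouse 5, had an Enah count of 205, the lowest of all lines, and was the library richest in ribosomal RNA. It also had the highest Vim level, 103 CPM, and the highest level of the epithelial marker Cdh1, 475 CPM. Without this line the stage difference was 0.20 points. Counted by expected counts in place of TPM, the stage difference was 2.13 points, the opposite sign.

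Enah-202 held 36.9% ± 5.41 of Enah in metastasis lines and 37.8% ± 3.00 in tumor lines (difference -0.54 points, SE 2.45, adjusted p = 0.961 in limma). Enah-214, a retained-intron model of 739 bases, held 19.1% ± 8.02 and 20.99% ± 5.00 in metastasis and tumor lines (difference -0.99 points, SE 3.36, adjusted p = 0.943). Its share rests on few reads, a mean expected count of 90.5 per line, because a percent of transcripts is corrected for length. The other 3 kept transcripts, Enah-210, Enah-211 and Enah-203, averaged 5.17% to 14.4% in metastasis lines and 6.67% to 11.1% in tumor lines, and none passed.

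Cd44, the hyaluronan receptor, was read in nearly all its RNA with variable exons. These exons, v1 to v10, lie between the constant ends of the gene. Forms that hold them are typical of epithelial cells and are promoted by Esrp1, while the standard form without them is typical of mesenchymal cells. Exons v6 and v7 are shown as neighbouring exons, of which the most abundant form, Cd44-207, holds v6 and not v7.
Cd44 v6 (chr2:102839358-102839477, minus strand): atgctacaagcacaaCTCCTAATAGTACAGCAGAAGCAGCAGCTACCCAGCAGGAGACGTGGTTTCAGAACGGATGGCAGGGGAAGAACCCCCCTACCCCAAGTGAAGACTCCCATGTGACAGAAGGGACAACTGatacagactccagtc
Cd44 v7 (chr2:102837813-102837938, minus strand): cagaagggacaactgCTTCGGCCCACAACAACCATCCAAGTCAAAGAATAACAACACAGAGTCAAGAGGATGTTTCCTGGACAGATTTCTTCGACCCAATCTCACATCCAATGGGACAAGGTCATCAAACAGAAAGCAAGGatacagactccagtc

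Inclusion of v10, which every annotated form with any variable exon holds, was 97.0% ± 1.75 in metastasis lines and 97.5% ± 0.513 in tumor lines. Exon v9 was at 97.0% ± 1.75 and 97.3% ± 0.309, and v8 at 93.9% ± 1.99 and 94.1% ± 0.985 in metastasis and tumor lines. Exon v6 was at 75.8% ± 4.13 and 79.7% ± 1.55, and v7 at 52.1% ± 8.01 and 49.5% ± 5.12 in metastasis and tumor lines. Exon v5 was at 52.3% ± 3.30 and 55.4% ± 4.13, and v4 at 28.5% ± 7.96 and 25.2% ± 6.23. The block v1 to v3, which the annotation places in 1 transcript only, was at 19.9% ± 6.63 and 17.8% ± 5.36. Inclusion fell from the v8 to v10 end towards v1, with a dip at v7 relative to v6, in both groups. The annotation fixes this order in every line. Each annotated transcript with v7 also holds v6 and v8, and apart from v7 the sets of transcripts are nested from v10 to v1. The order is thus no result about these lines, and only the sizes of the steps come from the reads.

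The standard form, Cd44-203, held 2.89% ± 1.69 of Cd44 in metastasis lines and 2.42% ± 0.48 in tumor lines, with a highest value of 5.82% in metastasis lines and 3.08% in tumor lines. It stayed below the 5% mean that a kept transcript needed. The most abundant form, Cd44-207, holds v5, v6 and v8 to v10 and made up 22.7% ± 7.57 of Cd44 in metastasis lines and 29.1% ± 4.50 in tumor lines (difference -6.59 points, SE 3.26, adjusted p = 0.511 in limma). The next, Cd44-202, holds v6 to v10 and made up 22.6% ± 2.47 and 23.3% ± 3.04 in metastasis and tumor lines (difference -0.88 points, SE 1.22, adjusted p = 0.840). Cd44-205, which holds v8 to v10 alone, is named after its values were seen, as the 1 kept Cd44 form with an unadjusted p under 0.05. It made up 20.7%, 22.5%, 15.8% and 13.5% of Cd44 in the metastasis lines of mice 1 to 4, 15.5% and 18.7% in the diaphragm and lung lines of mouse 5, and 15.8%, 15.8% and 17.5% in the liver, diaphragm and ovary lines of mouse 6. The tumor lines held 13.4%, 13.4%, 15.2%, 12.04% and 13.4% in mice 1 to 5, and 16.9% and 12.6% in replicates 6 and 7 of mouse 6. The groups overlapped, and the mean of the metastasis lines was the higher in 6 of 6 mice (exact sign-flip p = 0.03125), as 1 sign was in 7.95% of all transcripts. The means were 17.3% ± 2.86 in metastasis lines and 13.8% ± 1.64 in tumor lines (difference 3.52 points, SE 1.33, adjusted p = 0.379 in limma). With shares from expected counts the difference was 1.61 points. The other kept forms, Cd44-201 and Cd44-208, averaged 19.1% and 8.24% in metastasis lines and 17.1% and 7.15% in tumor lines.

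Among the variable exons, v6 had the lowest unadjusted p (0.0546) by stage, with a difference of -3.94 points (SE 1.83, adjusted p = 0.492 in limma) and 4 of 6 mice lower. The peritoneum line of mouse 3 stood out in v1 to v3, v4 and v7, at 33.4%, 43.6% and 69.0%, against 14.2%, 21.3% and 45.5% in the tumor line of that mouse. Without mouse 3 the stage differences of v1 to v3 and of v7 were -0.10 and -0.27 points, against 2.39 and 2.80 points with it. The forms Cd44-207 and Cd44-201 have longer 3′ ends than Cd44-202 (1389 more bases in the last exon for Cd44-207), and what reads on these ends add to the shares was not tested.

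**Figure D2:**
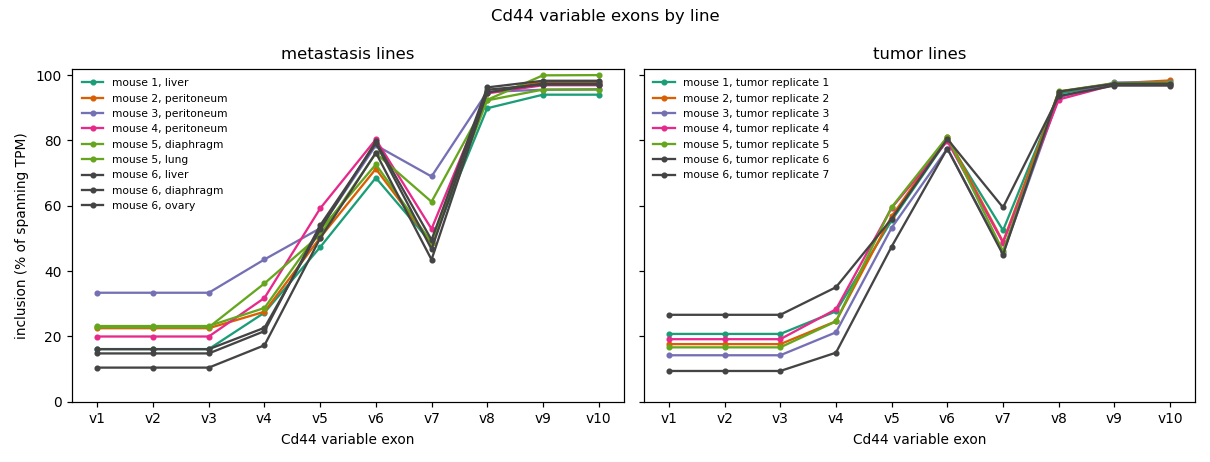
Inclusion of the Cd44 variable exons v1 to v10, as a percent of the TPM of transcripts that span each exon, in the 9 metastasis lines (left) and the 7 tumor lines (right), each line a curve coloured by its mouse. Exons v8 to v10 are above 89% in every line and v1 to v3 below 34%. The fall towards v1 and the dip at v7 relative to v6 follow from which annotated transcripts hold each exon.

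The Cd44 total was lower in 5 of 6 mice. It was 125, 82.9, 87.5 and 95.4 CPM in the metastasis lines of mice 1 to 4, 239 and 198 CPM in those from diaphragm and lung of mouse 5, and 132, 103 and 103 CPM in those of mouse 6. The tumor lines held 196, 189, 136, 189 and 159 CPM in mice 1 to 5, and 97.5 and 200 CPM in replicates 6 and 7 of mouse 6. Mouse 5 was the exception, with both metastasis lines above its tumor line. The mean was 130 ± 53.9 CPM in metastasis lines and 167 ± 38.2 CPM in tumor lines (log2 fold change -0.51, SE 0.20, adjusted p = 0.0940 in edgeR). Without the tumor line replicate 6 the log2 fold change was -0.63, with an adjusted p of 0.0274.

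Ctnnd1 encodes p120-catenin, which holds E-cadherin at the membrane. Forms that start at an upstream codon are known from mesenchymal cells and forms that start downstream from epithelial cells. Exon C, of 6 codons, and exons A and B, of 21 and 29 codons, can also be skipped. The coding ends of the exons with each start codon are shown first, with the start codon in capitals, and 101 codons lie between the starts.
Upstream start, Ctnnd1-202 (chr2:84624270-84624464, minus strand): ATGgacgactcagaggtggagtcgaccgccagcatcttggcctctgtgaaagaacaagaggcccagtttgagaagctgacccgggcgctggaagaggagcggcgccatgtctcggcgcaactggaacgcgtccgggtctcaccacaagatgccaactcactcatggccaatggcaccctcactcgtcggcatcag
Downstream start, Ctnnd1-205 (chr2:84620835-84620951, minus strand): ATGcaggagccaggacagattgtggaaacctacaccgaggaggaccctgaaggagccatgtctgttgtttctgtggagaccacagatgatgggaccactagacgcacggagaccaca
Ctnnd1 exon C (chr2:84612532-84612549, minus strand): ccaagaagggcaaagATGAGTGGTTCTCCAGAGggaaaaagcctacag

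The exon with the upstream start was at 49.9%, 54.7%, 49.3% and 52.5% in the metastasis lines of mice 1 to 4, 48.8% and 44.8% in the diaphragm and lung lines of mouse 5, and 46.0%, 48.8% and 47.2% in the liver, diaphragm and ovary lines of mouse 6. In tumor lines it was at 44.4%, 50.5%, 44.4%, 45.3% and 48.5% in mice 1 to 5, and 50.4% and 47.7% in replicates 6 and 7 of mouse 6. The metastasis lines of mice 1 to 4 were each above their tumor line, while those of mice 5 and 6 averaged below theirs. The means were 49.1% ± 3.06 in metastasis lines and 47.3% ± 2.66 in tumor lines (difference 1.95 points, SE 1.58, adjusted p = 0.714 in limma).

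About as much Ctnnd1 RNA was thus read with the upstream start as without it in both groups. Exon A was at 62.6% ± 3.86 in metastasis lines and 64.7% ± 3.71 in tumor lines (difference -2.33 points, SE 2.01, adjusted p = 0.722 in limma). Without the tumor line replicate 6 the differences of exons A and B were -3.73 and -0.60 points (adjusted p = 0.470 and 0.931), against -2.33 and -0.86 with it. Exon C was at 15.1% ± 2.15 and 15.4% ± 2.55, and exon B at 11.5% ± 3.74 and 12.1% ± 1.98, in metastasis and tumor lines, with adjusted p of 0.958 and 0.880 in limma. Ctnnd1-205, the leading form with the downstream start, made up 37.4% ± 4.198 in metastasis lines and 38.0% ± 3.57 in tumor lines. Ctnnd1-202, the leading form with the upstream start, made up 33.2% ± 3.35 and 31.05% ± 2.94. The other kept forms, Ctnnd1-217 and Ctnnd1-207, averaged 14.9% and 7.84% in metastasis lines and 15.2% and 8.86% in tumor lines. The Ctnnd1 total was 263 ± 55.9 CPM in metastasis lines and 279 ± 33.4 CPM in tumor lines (log2 fold change -0.16, SE 0.11, adjusted p = 0.361 in edgeR). Its lowest line was the peritoneum line of mouse 2, at 139 CPM.

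Numb, an adaptor protein that inhibits Notch and guides endocytosis, has a pair of cassette exons. Exon 3 adds 11 codons to the phosphotyrosine-binding domain, and exon 9 adds 49 codons to the proline-rich region. Inclusion of exon 9 is known from proliferating and progenitor cells and from several carcinomas.
Numb exon 3 (chr12:83825259-83825291, minus strand): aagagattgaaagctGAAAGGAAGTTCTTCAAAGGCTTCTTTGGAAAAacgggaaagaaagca
Numb exon 9 (chr12:83797197-83797343, minus strand): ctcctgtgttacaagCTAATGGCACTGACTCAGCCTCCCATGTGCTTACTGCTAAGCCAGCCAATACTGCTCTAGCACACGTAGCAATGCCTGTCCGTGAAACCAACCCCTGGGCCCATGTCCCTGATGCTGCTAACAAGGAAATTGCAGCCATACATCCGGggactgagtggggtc

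Exon 9 was at 27.5%, 38.7%, 40.8% and 38.0% in the metastasis lines of mice 1 to 4, 59.0% and 30.8% in the diaphragm and lung lines of mouse 5, and 43.8%, 51.5% and 31.8% in the liver, diaphragm and ovary lines of mouse 6. The tumor lines were at 32.95%, 28.8%, 32.5%, 45.1% and 32.0% in mice 1 to 5, and 48.4% and 49.0% in replicates 6 and 7 of mouse 6. The groups overlapped over nearly their whole ranges. The highest value came from the diaphragm line of mouse 5, where Numb had a count of 201, the lowest of all lines. That line had the highest level of Vim and also of Cdh1. The means were 40.2% ± 10.1 in metastasis lines and 38.4% ± 8.70 in tumor lines (difference 0.98 points, SE 4.63, adjusted p = 0.957 in limma, 3 mice up and 3 down). Without that line the difference was -1.46 points.

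Numb exon 3 was little used, at 8.40% ± 6.77 in metastasis lines and 5.66% ± 4.17 in tumor lines (difference 3.04 points, SE 2.88, adjusted p = 0.756), and was higher in 5 of 6 mice (exact sign-flip p = 0.0625). It was listed at 0% in the diaphragm line of mouse 5 and in the tumor line of mouse 2, the libraries with the lowest Numb counts in their groups. Numb-204 held 37.6% ± 5.93 of Numb in metastasis lines and 40.1% ± 8.70 in tumor lines. Numb-209, a fragment model of 567 bases with a mean expected count of 64.3 per line, held 28.5% ± 6.39 and 28.9% ± 6.44. It lacks exon 3, so its share, which rests on few reads, lowers the inclusion given for that exon. The other kept forms, Numb-210 and Numb-203, averaged 17.2% and 3.63% in metastasis lines and 13.2% and 7.75% in tumor lines. The Numb total was 24.5 ± 4.99 CPM in metastasis lines and 24.9 ± 3.52 CPM in tumor lines (log2 fold change -0.05, SE 0.11, adjusted p = 0.788 in edgeR).

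Arhgef11, an exchange factor for RhoA, has a known epithelial switch near the 3′ end of its coding sequence. The annotation used by the authors' tables holds no cassette exon there, so that switch was not read here. Of the cassette exons that the annotation does hold, the 120-base first cassette exon was at 63.1% ± 4.32 in metastasis lines and 65.5% ± 3.96 in tumor lines (difference -2.27 points, SE 2.31, adjusted p = 0.769 in limma). The 30-base second cassette exon is held by Arhgef11-202 and is shown because its highest value came from 1 line that stood apart.
Arhgef11 second cassette exon (chr3:87718229-87718258, plus strand): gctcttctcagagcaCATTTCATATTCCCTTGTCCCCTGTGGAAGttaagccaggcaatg
It was at 35.7% ± 4.66 in metastasis lines and 32.5% ± 3.89 in tumor lines (difference 3.09 points, SE 2.44, adjusted p = 0.708). The diaphragm line of mouse 5, the line with the most Vim and also the most Cdh1, reached 46.1% on an Arhgef11 count of 378. The other metastasis lines ran from 29.9% to 37.5% and tumor lines from 25.2% to 36.3%. A cassette exon of 127 bases, the third, whose skipping is annotated only in a transcript subject to nonsense-mediated decay, was at 94.5% ± 6.56 in metastasis lines and 96.9% ± 4.96 in tumor lines, and was too near 100% to enter the fit.

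Arhgef11-201 made up 56.9% ± 9.11 of the gene in metastasis lines and 62.4% ± 5.18 in tumor lines (difference -4.94 points, SE 2.84, adjusted p = 0.581 in limma). Arhgef11-202 made up 34.7% ± 5.15 and 31.5% ± 3.83 (difference 3.09 points, SE 2.53, adjusted p = 0.709). The Arhgef11 total was 41.3 ± 10.96 CPM in metastasis lines and 33.6 ± 2.66 CPM in tumor lines, and was higher in 5 of 6 mice (log2 fold change 0.29, SE 0.12, adjusted p = 0.107 in edgeR). Metastasis lines spread more, from 29.3 CPM in the diaphragm line of mouse 6 to 58.8 CPM in the peritoneum line of mouse 4, against 30.3 to 36.8 CPM in tumor lines.

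Pkm, the pyruvate kinase of glycolysis, was read almost wholly in its M2 form. The M1 and M2 exons are mutually exclusive, have the same length of 167 bases, and are set below with capitals where they differ, at 64 positions. They are identical at 61.7% of positions.
Pkm M1 exon (chr9:59675029-59675195, plus strand): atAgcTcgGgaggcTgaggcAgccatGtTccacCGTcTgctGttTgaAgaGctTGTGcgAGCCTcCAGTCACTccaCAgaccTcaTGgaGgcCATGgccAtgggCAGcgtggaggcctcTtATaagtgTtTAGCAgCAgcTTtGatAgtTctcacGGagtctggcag
Pkm M2 exon (chr9:59675568-59675734, plus strand): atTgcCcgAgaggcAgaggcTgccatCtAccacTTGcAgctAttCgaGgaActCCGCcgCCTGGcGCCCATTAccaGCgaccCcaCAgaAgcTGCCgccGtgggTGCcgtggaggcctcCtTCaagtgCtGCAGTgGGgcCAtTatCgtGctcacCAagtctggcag

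The M1 exon was at 3.44% in the liver line of mouse 1, at 11.7%, 5.83% and 16.2% in the peritoneum lines of mice 2, 3 and 4, and at 7.45% and 5.33% in the diaphragm and lung lines of mouse 5. It was at 4.60%, 3.68% and 3.84% in the liver, diaphragm and ovary lines of mouse 6. In tumor lines it was at 3.26%, 4.91%, 3.71%, 2.45% and 3.72% in mice 1 to 5, and at 3.22% and 3.56% in replicates 6 and 7 of mouse 6. The peritoneum lines of mice 2 and 4 were the only lines above 10%, and all tumor lines were below 5%.

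Mean M1 inclusion was 6.89% ± 4.33 in metastasis lines and 3.55% ± 0.744 in tumor lines, so that M2 made up 93.1% and 96.5%. The difference was 3.61 points (SE 1.65, adjusted p = 0.489 in limma) and was above 0 in 6 of 6 mice (exact sign-flip p = 0.03125), by 0.177 points in mouse 1, 0.649 points in mouse 6 and 13.8 points in mouse 4. Without mouse 4 it was 2.10 points. By site, fitted within mice, the peritoneum lines stood 7.54 points (SE 2.74) above tumor, against 0.560 to 1.63 points for the other sites. The F test over sites gave an adjusted p of 1.00 in limma. That test asks whether the metastasis sites are equal among themselves, not whether they differ from tumor. Peritoneum lines were the only metastasis lines of mice 2, 3 and 4, so that site cannot be told apart from those mice. The peritoneum line of mouse 3, at 5.83%, was below the diaphragm line of mouse 5. The transcripts that carry the exons, Pkm-202 with M1 and Pkm-201 with M2, were at 6.72% ± 4.19 and 90.9% ± 4.52 of Pkm in metastasis lines and at 3.39% ± 0.569 and 92.7% ± 4.77 in tumor lines. The differences were 3.58 points (SE 1.53, adjusted p = 0.440) for Pkm-202 and -2.15 points (SE 1.70, adjusted p = 0.697) for Pkm-201 in limma. Pkm-201 also has 205 more bases in its first exon and 186 in its last. The Pkm total was 3289 ± 806 CPM in metastasis lines and 2862 ± 661 CPM in tumor lines (log2 fold change 0.13, SE 0.13, adjusted p = 0.520 in edgeR).

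**Figure D3:**
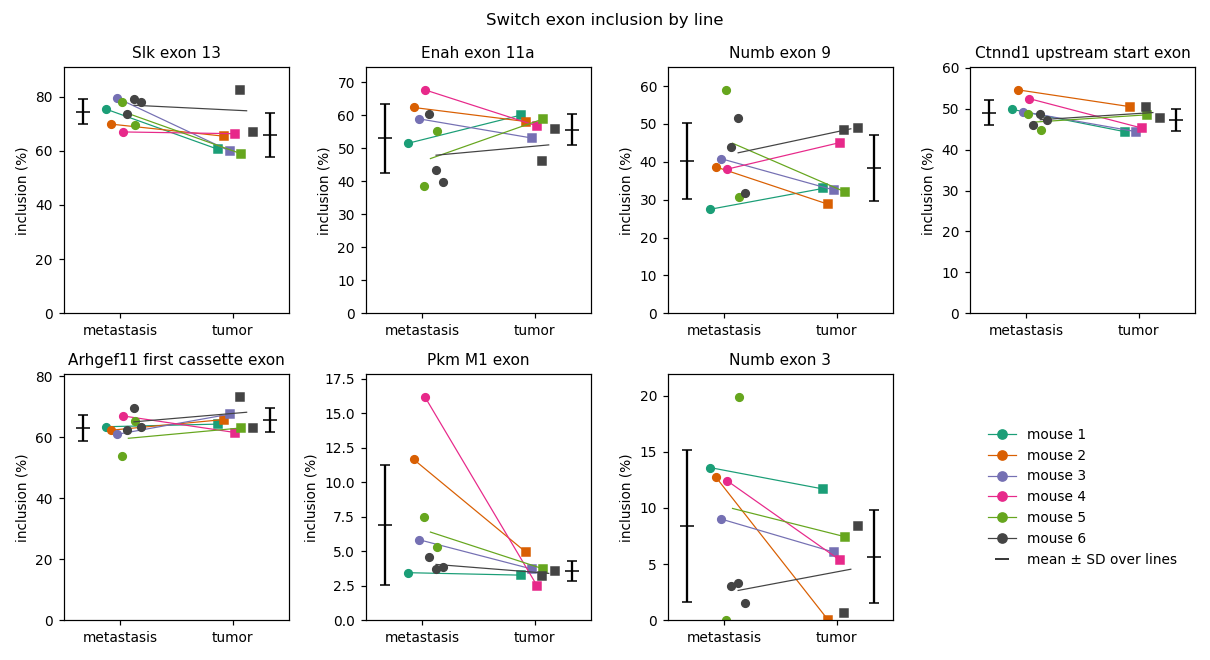
Inclusion of 7 switch exons in percent (linear axes from 0, each panel on its own scale) in metastasis lines (circles) and tumor lines (squares), coloured by mouse, with thin lines between the means of each mouse and bars for the mean ± SD over 9 metastasis and 7 tumor lines. The mean of Slk exon 13 is higher in metastasis lines of each mouse, although the tumor line replicate 6 is the highest line, and the Pkm M1 exon exceeds 10% only in the peritoneum lines of mice 2 and 4.

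Set side by side, the 18 exons in the fit had stage differences between -3.94 and 8.31 points, and the adjusted p in limma was lowest for Slk exon 13. Exons known as epithelial did not move together: Enah 11a differed by -1.42 points and the Cd44 variable exons from v4 to v8 by between -3.94 and 3.62 points. The upstream Ctnnd1 start, tied to mesenchymal cells, differed by 1.95 points. On the TPM scale the genes themselves spanned a wide range, from 7.61 ± 2.62 TPM for Arhgef11 and 14.3 ± 4.27 TPM for Numb to 1656 ± 543 TPM for Pkm in metastasis lines, and from 6.83 ± 0.772 and 15.3 ± 3.65 to 1625 ± 387 TPM in tumor lines.

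**Figure D4:**
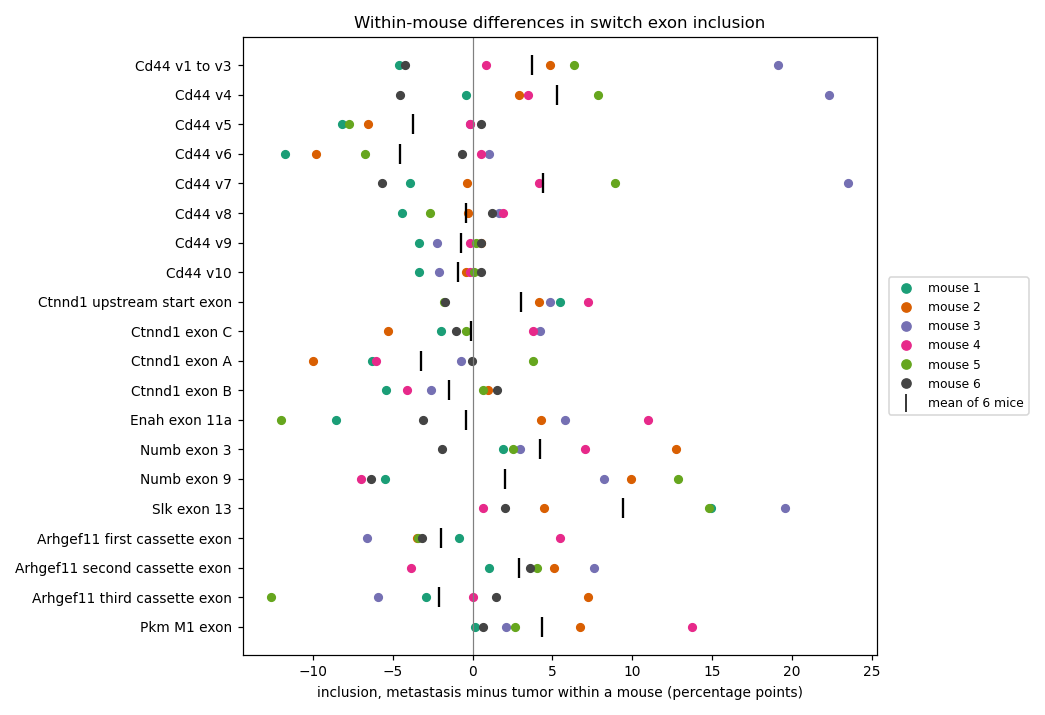
Difference in inclusion of each switch exon between the mean of the metastasis lines and the mean of the tumor lines of a mouse, in percentage points, with 1 point per mouse and a black bar at the mean of 6 mice. Slk exon 13 and the Pkm M1 exon have all 6 mice above 0, while the points of the other exons plotted fall on both sides of 0; the Pkm M2 exon, whose differences are those of M1 with the sign turned, is not plotted.

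The splice shares were also set against the mouse and the site of each line. By mouse, 0.0123% of transcripts (3 transcripts) and 0.0476% of exon events (3 events) passed in limma's F test over the tables, none of them of the 7 genes. At an unadjusted p under 0.05 the mouse test gave 7.59% of transcripts, among them 2 of the 26 kept ones, and the site test gave 1 of the 26. By site, 0.0123% of transcripts passed (3 transcripts), again none of the 7 genes, and 4.82% did at an unadjusted p under 0.05. The lowest adjusted p among the kept transcripts was 0.635 by mouse, for Pkm-201, and 0.967 by site, for Numb-203. The site test compared the metastasis sites with each other, not with tumor. Liver, peritoneum and diaphragm had 2 to 3 lines each and lung and ovary 1 each, and the site fit left 5 residual degrees of freedom. The peritoneum lines were the only metastasis lines of mice 2, 3 and 4, so that site cannot be told apart from those mice.

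None of the listed regulators of such exons passed the test between the groups. Of 31 splicing regulators listed, 28 were tested by edgeR; 0 were higher and 0 lower in metastasis lines, with a median log2 fold change of -0.03, against -0.02 over all genes. At an unadjusted p under 0.05, edgeR gave 3 of the 28, against 33.6% of all genes. DESeq2 called 2 of the 29 to which it gave an adjusted p, against 21% of all such genes: Rbm38 (log2 fold change 0.49 in edgeR, adjusted p = 0.0669) and Mbnl3 (0.34, adjusted p = 0.0549), both higher in metastasis lines and named after their values were seen. Esrp1 was at 96.9 ± 14.6 CPM in metastasis lines and 94.3 ± 7.24 CPM in tumor lines (log2 fold change 0.03, SE 0.09, adjusted p = 0.846 in edgeR). Esrp2 was at 62.0 ± 15.6 CPM and 54.6 ± 4.02 CPM (0.15, SE 0.12, adjusted p = 0.384). Rbfox2 was at 37.8 ± 2.81 CPM in metastasis lines and 42.6 ± 5.03 CPM in tumor lines (-0.17, SE 0.08, adjusted p = 0.169) and was lower in 6 of 6 mice. In all, 5 of the 28 regulators (17.9%) had 1 sign in 6 of 6 mice, Hnrnpf and Rbm38 higher and Rbfox2, Mbnl2 and Khdrbs1 lower, against 25.8% of all genes. Ptbp1, which represses the Pkm M1 exon, was at 316 ± 38.2 CPM and 332 ± 56.1 CPM (-0.07, SE 0.11, adjusted p = 0.717). The peritoneum line of mouse 4, the line with the most Pkm M1, had the lowest Esrp1 level at 69.9 CPM and the highest Esrp2 level at 98.7 CPM. The part of either in its splice shares was not tested.

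**Figure D5:**
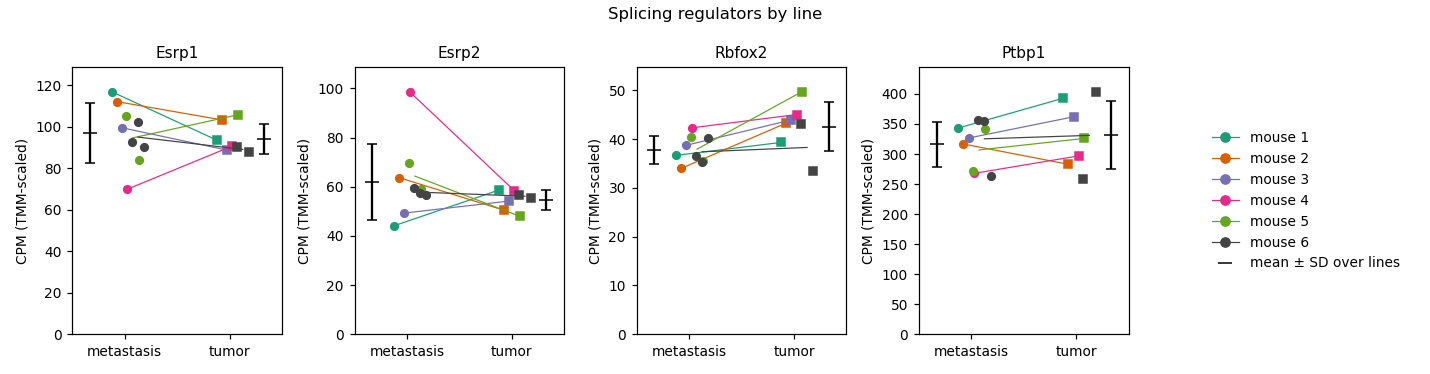
Levels of Esrp1, Esrp2, Rbfox2 and Ptbp1 in CPM scaled by TMM (linear axes from 0) in metastasis lines (circles) and tumor lines (squares), coloured by mouse, with bars for the mean ± SD over 9 metastasis and 7 tumor lines. The groups overlap for each of the 4 genes, and the peritoneum line of mouse 4 has the lowest Esrp1 and the highest Esrp2.

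For 6 of the 7 genes, the gene whose total followed theirs most closely is given, found by Pearson correlation of log2 CPM over the 16 lines, which share their mice and their library depths. They were Msrb3 for Cd44 (r = 0.906), Prdx4 for Enah (r = 0.953), Etfa for Numb (r = 0.905) and Tmco3 for Arhgef11 (r = 0.903). For Slk it was Gm19557 (r = 0.966), an antisense RNA gene on the same chromosome, chr19:47512982-47516578, at a distance of 63100 bases. For Pkm it was Gm6560 (r = 0.925), annotated as a processed pseudogene. Whether it derives from Pkm or shares reads with it was not tested.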

How the data were processed

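RNA was measured in 16 organoid lines, 9 from metastases and 7 from primary tumors of 6 mice. The tools named in the submitters' processing notes are STAR 2.6.0c, RSEM 1.3.1 and FastQC 0.11.8, and the build named there is GRCm38.p6. The authors deposited, per the file headers, an expected count, which is an estimate and need not be whole, for each gene and each transcript. The authors deposited TPM values of the same features, scaled for length and library, per the file headers. The authors also deposited the percent of a gene's transcripts that each transcript makes up, per the file headers. These percentages rest on reads that RSEM divides among annotated transcripts, so ends as well as switch exons shape them, and forms outside the annotation are not seen. The strand setting of the counting is not given in the sources used here.

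Transcript structures came from GENCODE M21, which matched 141481 of the 142238 transcripts. Exon inclusion was the TPM of transcripts that hold an exon exactly, as a percent of the TPM of those that span it and either hold it or do not overlap it. Expected counts were rounded and tested with edgeR 4.0.16 (R 4.3.3; TMM, filterByExpr, quasi-likelihood F test, terms for mouse and stage). Percentages were tested with limma 3.58.1 in percentage points, over all transcripts or exon events with a mean between 5% and 95% in genes with an expected count of 20 or more in every line. P-values were adjusted by Benjamini-Hochberg over each whole table at a threshold of 0.05. Sign-flip tests over the 6 mice were exact and two-sided. The tests were checked on simulated data. Alternatives were RLE factors, no count filter, DESeq2 1.42.0, shares from expected counts, an arcsine scale, a gene count of 100, a mean share of 10%, diffSpliceDGE, no mouse term, and lines or mice left out.

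Mouse labels pair the lines, since metastasis and tumor lines of 1 number came from 1 animal. Deviations from the stage means correlated by 0.03 on average over 17 pairs of lines of 1 mouse and by -0.08 over 103 pairs of different mice. Taking out the stage means by itself lowers the correlation of lines of 1 stage. Pairs of 1 mouse were mostly across stages, so the gap between these averages does not test the pairing. Pairs of 1 mouse across stages correlated by -0.01 to 0.14. In every gene named, the leading 2 kept transcripts are given in full, with the known switch exons. The members and the lists were chosen with earlier results of these data known. No 2 lines held identical gene counts. The gene most like Ctnnd1 in its total is not reported here.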

Additional observations from a re-analysis of the deposited data

Results flagged for a closer look

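Lines that stood far from the rest of their group were sought in 54 groups of values (7 gene totals and 20 switch exons, each in metastasis and in tumor lines). The cut-off used has a nominal chance rate of about 1 group in 20, which was not measured in these data. Of the 7 marked, 5 were values of 1 line, the tumor line replicate 6 of mouse 6. In that line the Enah total was 16.1 CPM, against 66.7 to 81.7 CPM in the other tumor lines. Its Slk total was 368 CPM, against 159 to 209 CPM. Its Slk exon 13 inclusion was 82.5%, against 58.9% to 67.0%. Its Ctnnd1 exon A inclusion was 56.8%, against 64.2% to 67.7%, and its Ctnnd1 exon B inclusion was 16.3%, against 10.6% to 12.5%.

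The other marks fell on the libraries richest in ribosomal RNA. The second cassette exon of Arhgef11 was at 46.1% in the diaphragm line of mouse 5, against 29.9% to 37.5% in the other metastasis lines. The third cassette exon of Arhgef11 was at 86.6% in the tumor line of mouse 2, against 95.5% to 100.0% in the other tumor lines. The part of ribosomal RNA in these values was not tested.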

How the results depend on the processing

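None of the 14 leading transcripts, 2 for each gene, and none of the 18 switch exons in the fit passed the threshold under any alternative run (lowest adjusted p 0.118). Counts over all features moved more. The count of transcripts called by stage was 1, and became 0 with shares from expected counts, 0 on the arcsine scale, 0 with a gene count of 100, 2 with a mean share of 10% and 14 with diffSpliceDGE. Without the replicate block, the mouse term that pairs lines of 1 animal, it was 22, exon events called were 3 against 0, and genes called were 2219 against 2571; the Slk and Enah totals then missed the threshold (adjusted p = 0.0622 and 0.108), and no call changed among the other 5 totals, Esrp1, Esrp2, Rbfox2 and Ptbp1. Genes called were 4260 with DESeq2 and 794 without the 2 libraries rich in ribosomal RNA. Leaving out 1 line or mouse gave 0 to 50 transcripts, 0 to 11 exon events and 766 to 3910 genes by stage, each highest without tumor replicate 6, and 3 to 4 transcripts by mouse and 1 to 14 by site. Transcripts called by mouse were 3, and 6 on the arcsine scale and 9 without the 2 ribosomal-rich libraries. Transcripts called by site were 3, and 0 with a gene count of 100. The Slk total kept its call in 12 of 18 alternatives and the Enah total in 6 of 18; the Cd44 total gained one without tumor replicate 6 (adjusted p = 0.0274). The Vim total, added after its values were seen, kept its call in 11 of 18 alternatives (log2 fold change 2.10 to 4.28), and Cd44-205, added likewise, passed in none of 20.

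Small differences changed sign, and none of these passed in any setting. With shares from expected counts the stage difference was 0.0026 points for Cd44-202, 1.73 for Enah-202, 2.13 for Enah exon 11a, 1.86 for Numb-204, 0.092 for Numb-209 and -2.52 for Numb exon 9. With diffSpliceDGE the log2 ratio was 0.032 for Cd44-202, 0.082 for Enah-202, 0.18 for Enah-214, 0.049 for Numb-204 and 0.054 for Numb-209. Without both ribosomal-rich libraries it was 0.46 points for Ctnnd1-205, 0.21 for Ctnnd1 exon C, 1.26 for Enah-214, 2.39 for Numb-204 and -3.23 for Numb exon 9. With 1 line or mouse left out, the ranges were -0.10 to 5.37 points for Cd44 v1 to v3, -0.27 to 6.61 for v7, -0.89 to 0.39 for v8, -0.96 to 0.46 for Ctnnd1 exon C, -1.53 to 0.14 for Ctnnd1-205, -3.26 to 0.79 for Enah exon 11a, -2.08 to 0.995 for Enah-202, -3.27 to 1.15 for Enah-214, -1.49 to 4.28 for Numb exon 9, -4.37 to 0.56 for Numb-204 and -3.47 to 0.48 for Numb-209. The log2 fold changes of the totals ran from -0.014 to 0.11 for Esrp1, -0.13 to 0.0097 for Numb and -0.13 to 0.0034 for Ptbp1. The causes were not tested. Depth limits Numb, Enah and Arhgef11 most, whose counts fell to 201, 205 and 378 in the diaphragm line of mouse 5.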
